A study of Mus musculus with 34 samples.

Results

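The genes described here are the expressed members of the mouse Zfp name series, the genes called zinc finger protein followed by a number. A gene was taken when its symbol began with Zfp and a digit and its merged RPKM (reads per kilobase of transcript, scaled to the number of reads) in DMSO-treated cells was above 5. Symbols that mark a pseudogene by the ending -ps were left out, as were the Zfp36 genes, which encode RNA-binding proteins of another kind. By this rule Zfp264, which the GENCODE annotation lists as a transcribed pseudogene, is 1 of the members. Of 366 genes with such a name, 206 passed, of 52661 genes in the expression table. Another 105 lay between 1 and 5 RPKM and 55 below 1 RPKM. Members were thus chosen by their name and their DMSO RPKM, so that level is given below as a description without a test.

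The study asked how small molecules that act on microexon splicing change the transcriptome of N2A cells, an established mouse neuroblastoma line grown in culture. Cells were treated for 24 h at a final 0.4% DMSO, and polyA-selected RNA was sequenced in 34 libraries. All groups were the same line and differed by the compound and its concentration. DMSO alone, the vehicle, had 3 libraries, and the histone deacetylase (HDAC) inhibitors Vorinostat_SAHA (here Vorinostat), CI_994 (here CI-994), BRD4884 and BRD6688 were sequenced as 2 libraries per compound. The other 23 compounds had 1 library each. They were the kinase inhibitors A-443654 (AKT), NVP-AEW-541 (IGF1R), Trametinib (MEK), Crenolanib (PDGFR), SCH-772984 (ERK), GNF-5837 (TRK) and MK-1775 (WEE1), the DNA methyltransferase inhibitor 5-azacytidine, and the screening molecules BTB12021, BTB13120, RDR00572, S02045, BTBS00065, SEW06315, RH01954, AW00693, SPB00858, JFD00822, T5635931, T5758020, T5963258, T5985871 and OICR.24K.Dissimilar_18_P14. For most of these single-library compounds the labels give the position in a screening collection, and the names come from the compound tables of the study. The labels give no concentration. The compound table of the study lists BRD4884 and BRD6688, both derivatives of CI-994, at the same concentration and the other HDAC inhibitors at others, so only that pair was compared directly and all other compounds are set side by side. The 11 markers of sympathetic neuroblastoma reported here were each above 1 RPKM in DMSO, and their sum lay between 746.51 and 1782.24 RPKM over the conditions. None of 5 markers of blood, fibroblasts, astrocytes, endothelium and epithelium was above 1 RPKM in DMSO, and their sum lay between 0.75 and 16.75 RPKM over the conditions. In bulk RNA, fewer cells of a kind and less RNA per cell cannot be told apart.

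Zinc finger proteins of this series carry repeats of the C2H2 finger, a short fold held by a zinc ion between paired cysteines and histidines, and most bind DNA through arrays of such fingers. Many also carry a KRAB domain, which recruits the co-repressor Trim28 and, through it, histone methylation and deacetylation, and these proteins are best known for silencing transposable elements and for keeping imprinted genes methylated. Others without a KRAB domain act as activators, as adaptors in the spindle or the ribosome, or as RNA-binding proteins. HDAC inhibitors block the removal of acetyl groups from histones and change the transcription of many genes in both directions. mRNAs of such regulatory proteins are often described as unstable. The stability of mRNAs was not measured in these libraries, so whether the members report on transcription was not tested.

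Promoter sequences are shown for the members that stood lowest and highest under HDAC inhibition in this data set, Zfp428 and Zfp423 at the low end and Zfp385a and Zfp217 at the high end. Each is 300 bases of RefSeq sequence on GRCm38.p6, from 250 bases before to 50 bases after the start in the RefSeq annotation, written 5′ to 3′ on the strand of the gene. The window of Zfp428 was chr7:24506837-24507136 on the plus strand, that of Zfp423 chr8:87959546-87959845 on the minus strand, that of Zfp385a chr15:103340037-103340336 on the minus strand, and that of Zfp217 chr2:170142626-170142925 on the minus strand. The RefSeq start of Zfp217 lies inside the gene as GENCODE draws it, downstream of the GENCODE start. Capitals mark the GC box letters GGGCGG or their reverse complement CCGCCC, to which Sp and Klf proteins bind.
Zfp428: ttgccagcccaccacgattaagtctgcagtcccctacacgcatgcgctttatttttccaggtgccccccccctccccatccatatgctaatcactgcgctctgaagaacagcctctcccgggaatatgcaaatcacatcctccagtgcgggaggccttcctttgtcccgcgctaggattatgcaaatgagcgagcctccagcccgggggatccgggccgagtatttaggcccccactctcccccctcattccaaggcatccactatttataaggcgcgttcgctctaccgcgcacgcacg
Zfp423: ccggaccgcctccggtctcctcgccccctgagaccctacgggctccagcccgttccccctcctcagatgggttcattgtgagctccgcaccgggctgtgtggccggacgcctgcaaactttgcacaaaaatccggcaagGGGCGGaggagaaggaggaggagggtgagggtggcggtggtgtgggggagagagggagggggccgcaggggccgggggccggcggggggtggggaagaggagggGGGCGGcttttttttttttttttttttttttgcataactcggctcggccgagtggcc
Zfp385a: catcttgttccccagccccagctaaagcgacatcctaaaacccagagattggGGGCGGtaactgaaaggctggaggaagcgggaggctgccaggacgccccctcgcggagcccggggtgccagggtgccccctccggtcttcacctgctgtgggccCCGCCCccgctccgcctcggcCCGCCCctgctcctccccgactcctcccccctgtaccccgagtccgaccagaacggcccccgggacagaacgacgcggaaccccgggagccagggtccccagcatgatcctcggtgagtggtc
Zfp217: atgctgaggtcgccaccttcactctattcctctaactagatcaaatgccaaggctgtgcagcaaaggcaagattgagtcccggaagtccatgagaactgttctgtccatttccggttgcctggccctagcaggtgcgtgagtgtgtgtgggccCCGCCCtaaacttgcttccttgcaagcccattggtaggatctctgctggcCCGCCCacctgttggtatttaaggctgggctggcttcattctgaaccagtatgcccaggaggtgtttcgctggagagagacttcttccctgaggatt

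The window of Zfp385a held 3 GC boxes and 23 CpG, that of Zfp217 held 2 and 7, that of Zfp428 held 0 and 19, and that of Zfp423 held 2 and 21. Over all members, 170 had a promoter in the reference. Of these, 48.2% held at least 1 GC box, against 69.0% of 6929 promoters of genes above 5 RPKM in DMSO and 35.9% of all 27025 promoters. Their median CpG number was 15, against 22 and 7. Among the 8 members lowest over the HDAC inhibitors 1 of 8 promoters held the box, and among the 8 highest 6 of 7 did. Across all members the split was small. The median centred log2 ratio in Vorinostat was 0.15 for the 82 members with the box and -0.01 for the 88 without it, and in BRD4884 it was -0.08 and -0.13. Matches are letters in a window and do not mark binding.

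All members were matched to the GENCODE vM21 annotation, and 205 had a coding sequence. Translated by script, these held between 0 and 37 C2H2 motifs (C, 2 to 4 residues, C, 12 residues, H, 3 to 5 residues, H), with a median of 10. A strict KRAB motif was found in 89 members and not in 116, and with Zfp264, which has no coding sequence, these make 117 other members. It is a fixed pattern, so a KRAB domain that departs from it was not counted and the other members may include KRAB proteins. The KRAB members held more fingers (median 12 against 8). Only Zfp330, a nucleolar protein, and Zfp365, a Disc1-binding centrosomal protein, had a coding sequence with no C2H2 motif. Members lay in clusters: 46 on chromosome 7, 26 on chromosome 17, of which 21 held the KRAB motif, and 16 on chromosome 13. In 14 members over 50% of the 31-base words of the transcripts were shared with another gene, and there the authors' read assignment could split reads between near copies.

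In DMSO the members were modest in level. Their median was 12.2 RPKM, against 26.9 RPKM for the 9397 genes above 5 RPKM. Between 5 and 10 RPKM lay 80 members, between 10 and 20 RPKM 79, and above 20 RPKM 47. The highest was Zfp207, a microtubule-associated protein that loads the checkpoint protein Bub3 onto kinetochores, at 151 RPKM. It was followed by Zfp106, an RNA-binding protein needed by motor neurons, at 86.3 RPKM, Zfp445, a KRAB protein that keeps imprints, at 84.8 RPKM, Zfp365 at 66.8 RPKM and Zfp131 at 62.1 RPKM. Just inside the threshold stood Zfp882 (5.05 RPKM), Zfp758 (5.06 RPKM) and Zfp11 (5.07 RPKM), and just outside Zfp160 (4.97 RPKM), Zfp944 (4.96 RPKM) and Zfp316 (4.95 RPKM). The median DMSO level was 10.7 RPKM in KRAB members and 14.5 RPKM in the others. Among Zfp genes with well-known roles, Zfp42, a marker of pluripotent cells, and Zfp521 were listed at 0 RPKM, and Zfp516 (3.84 RPKM) and Zfp418 (2.69 RPKM) lay below the threshold.

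How far did the members move in each compound? The expression table holds 1 merged RPKM per condition, so it gives ratios without an error. Each ratio was taken as log2((RPKM + 0.5)/(DMSO RPKM + 0.5)) and centred on the median of the 9397 genes above 5 RPKM in DMSO, and a gene was counted when it lay more than 2-fold above or below DMSO. All 27 ratios of a gene share its DMSO value. The SD of their ratios was below that of the 9397 genes in 27 of 27 compounds, and the share past 2-fold was lower in 24 of 27. Between the 10th and 90th percentile the members were narrower in Vorinostat (-0.61 to 0.70 against -1.14 to 1.06) but not in every compound. They were wider in some, such as S02045 (-0.29 to 0.29 against -0.27 to 0.24) and BTB12021 (-0.28 to 0.42 against -0.30 to 0.31). In no compound did 159 members pass 2-fold, and 47 passed it in at least 1 (22.8%, against 44.0% of the 9397 genes). The median range of a member over the 27 compounds was 1.15 on the log2 scale, against 1.38 for the 9397 genes. The most stable were Zfp84, with a range of 0.46, Zfp281, a GC-rich promoter-binding factor of pluripotent cells, with 0.47, Zfp763 with 0.54, Zfp263 with 0.61 and Zfp13 with 0.62.

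**Figure D1:**
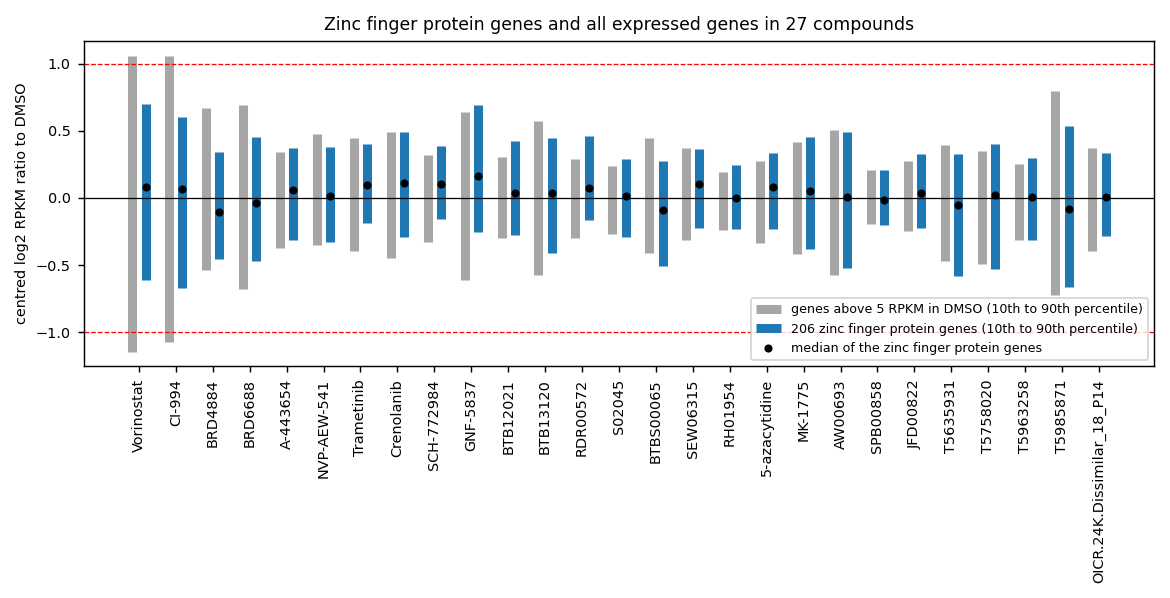
Centred log2 RPKM ratio to DMSO (vertical axis) in 27 compounds. Grey bars run from the 10th to the 90th percentile of genes above 5 RPKM in DMSO, blue bars the same for the 206 zinc finger protein genes, black points are their medians and dashed lines mark 2-fold. The medians stay near 0, from -0.11 in BRD4884 to 0.16 in GNF-5837, and the blue bars are clearly shorter than the grey ones in the HDAC inhibitors. In some other compounds, S02045 and BTB12021 among them, the blue bars are the longer ones.

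Vorinostat had the most members past 2-fold, and CI-994 came next together with T5985871. In Vorinostat 9 members lay more than 2-fold higher (11.2% of the 9397 genes did) and 11 more than 2-fold lower (12.6%). In CI-994 the counts were 8 higher (11.2%) and 5 lower (11.5%). Without centring they were 1 higher and 26 lower in Vorinostat (5.02% and 24.4% of the 9397 genes) and 2 higher and 33 lower in CI-994 (4.09% and 28.6%), so that lower members then outnumbered higher ones in both and CI-994 had the most. In BRD4884 the centred counts were 2 higher (4.04%) and 1 lower (0.990%), and in BRD6688 4 higher (4.12%) and 1 lower (3.17%), and without centring 0 and 6 in BRD4884 (1.90% and 4.70%) and 2 and 4 in BRD6688 (2.22% and 7.17%). As shares of the 206 members the centred counts were 4.37% and 5.34% in Vorinostat and 3.88% and 2.43% in CI-994. The median centred ratio was 0.08 in Vorinostat and 0.07 in CI-994, and turned to -0.36 and -0.47 without centring, since the 9397 genes together shifted by -0.44 and -0.53. In BRD4884 and BRD6688 it was -0.11 and -0.04, or -0.41 and -0.26 without centring, with shifts of -0.30 and -0.22. Below DMSO in all 4 HDAC inhibitors were 56 members (27.2%, against 32.2% of the 9397 genes), and above it in all 4 were 50 (24.3%, against 31.8%).

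**Figure D2:**
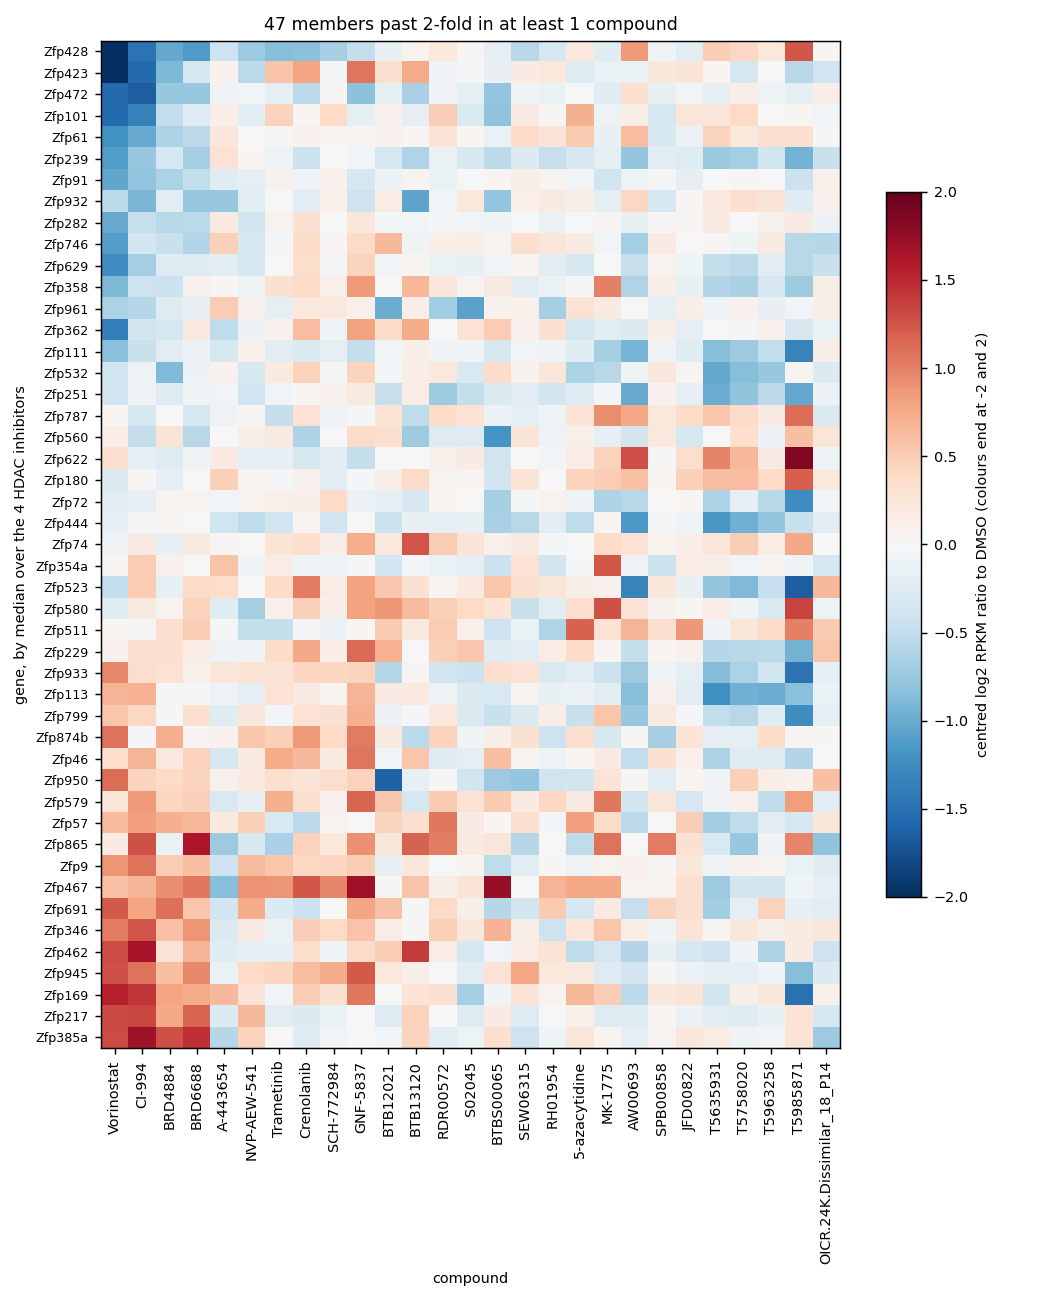
Centred log2 RPKM ratio to DMSO of the 47 members past 2-fold in at least 1 of 27 compounds, with genes in rows ordered by their median over the 4 HDAC inhibitors and compounds in columns. Blue is lower and red higher than DMSO, with colours ending at -2 and 2. The 4 HDAC inhibitor columns are blue together at the top (Zfp428, Zfp423, Zfp472) and red together at the bottom (Zfp169, Zfp217, Zfp385a), while T5985871 and GNF-5837 mark other genes.

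The splicing table holds values per library, and its exon-exon junction reads were summed per gene to give a level with replicates. Levels are normalised junction reads per 1000000 junction reads of the library, scaled to the median gene of each library. Junction totals ranged from 17702718 to 40613524 reads per library. Of the members, 163 had intron events in that table, and 156 of them had a mean of at least 20 reads and were tested. Differences from DMSO were tested with limma over 10689 genes and 34 libraries, with Benjamini-Hochberg adjustment per compound. The spread came from 6 residual degrees of freedom in the replicated groups. The labels name the replicate libraries by letter only, and the methods of the study call those of the HDAC inhibitors biological replicates. Whether they came from separate cultures is not said, so p-values measure the spread between these libraries. The reporting summary of the study gives fewer biological replicates for DMSO than the 3 DMSO libraries in the labels, and all 3 were used as labelled. The libraries are unstranded, so reads of overlapping or antisense genes cannot be told apart.

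Fallen members outnumbered risen ones under all 4 HDAC inhibitors by this measure, as fallen genes did among the expressed genes. With libraries centred on the expressed genes, Vorinostat gave 44 risen and 45 fallen members and CI-994 gave 39 of each. In Vorinostat 39 of 156 members rose (34.2% of the 7448 tested genes above 5 RPKM in DMSO did) and 47 fell (40.4%). In CI-994 31 rose (33.2%) and 50 fell (42.7%), and in BRD6688 19 rose (27.3%) and 46 fell (35.4%). BRD4884 was the most one-sided, with 8 risen members (19.2%) and 67 fallen ones (40.6%), most of them by less than 2-fold, since 5 of the 67 passed it. The fallen share of members in BRD4884, 42.9%, was close to that of the 7448 genes, while the risen share, 5.13%, was lower. Centred on the expressed genes in place of all tested genes, BRD4884 gave 9 risen and 51 fallen members. Under that centring the shares of all genes are not given here for any compound, so those counts do not set the members against other genes. Where a member with junction reads was past 2-fold in RPKM, the junction reads were called in the same direction for 10 of 10 lower and 7 of 7 higher members in Vorinostat, for 5 of 5 and 7 of 7 in CI-994, for 1 of 1 and 1 of 2 in BRD4884, and for 1 of 1 and 3 of 3 in BRD6688. No member was called in the opposite direction in the 4 HDAC inhibitors. Both measures come from the same libraries, so their agreement is not independent. Members named below for their RPKM ratios were picked from these libraries too.

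**Figure D3:**
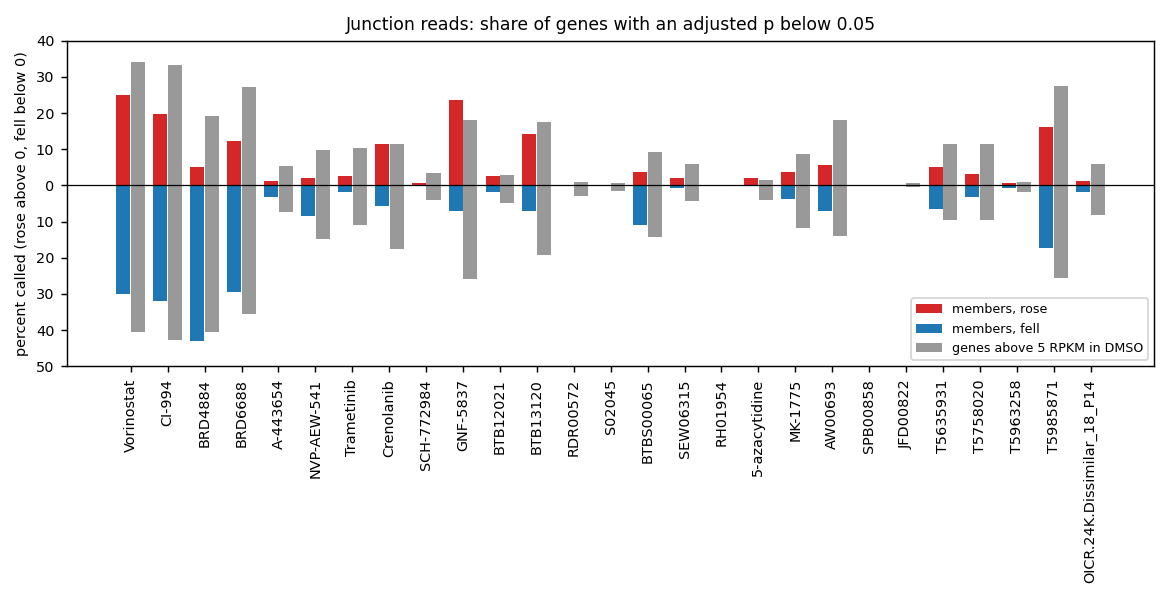
Percent of genes with an adjusted p below 0.05 for junction reads (vertical axis, rose above 0 and fell below 0) in 27 compounds. Coloured bars are the 156 tested members and grey bars the 7448 tested genes above 5 RPKM in DMSO. The coloured bars are shorter than the grey ones above 0 in each HDAC inhibitor, and in GNF-5837 the risen share of members, 23.7%, exceeds 18% of the genes.

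Zfp423, a factor with 27 finger motifs that is needed for cerebellar and fat cell development, fell in all 4 HDAC inhibitors. The gene lies at chr8:87661810-87959595 on GRCm38. Its junction levels were 31.4, 32.3 and 27.9 in the DMSO libraries, 2.1 and 3.0 in Vorinostat, 7.35 and 6.55 in CI-994, 10.6 and 11.6 in BRD4884, and 14.5 and 16.2 in BRD6688. No HDAC inhibitor library reached the DMSO libraries. The log2 differences were -3.60 ± 0.14 (SE, limma adjusted p = 7.13e-11), -2.13 (1.24e-08), -1.46 (1.5e-06) and -0.99 (4.83e-05). Its merged RPKM went from 21.9 in DMSO to 1.88, 4.75, 9.19 and 14.4 in the same order.

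Zfp428 (chr7:24507006-24515682) had the lowest median RPKM ratio over the 4 inhibitors. Its RPKM was 19.4 in DMSO and 2.99 in Vorinostat, 4.46 in CI-994, 7.45 in BRD4884 and 7.29 in BRD6688. Junction levels were 7.45, 6.98 and 7.31 in DMSO, 1.76 and 1.26 in Vorinostat, 2.48 and 2.85 in CI-994, 3.65 and 5.21 in BRD4884, and 5.90 and 4.35 in BRD6688, again all below the DMSO libraries. It fell by 2.28, 1.45, 0.73 and 0.52 on the log2 scale (limma adjusted p = 2.1e-07, 1.88e-05, 0.0068 and 0.0393). Its call in BRD4884 was lost without library A (-0.47, adjusted p = 0.121), and that in BRD6688 in 4 of 11 fits that each left out 1 of the DMSO or HDAC inhibitor libraries, with limma adjusted p up to 0.332.

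Zfp472 fell in all 4 as well, by 1.79, 1.58, 0.95 and 0.91 on the log2 scale of junction reads (limma adjusted p from 1.56e-07 to 0.000184). Its DMSO levels of 9.08, 10.9 and 9.97 were followed by 2.55 and 3.25 in Vorinostat, 3.12 and 3.53 in CI-994, 5.19 and 5.08 in BRD4884, and 5.29 and 5.27 in BRD6688. Zfp61 fell by 1.30, 1.29, 0.84 and 0.85, from 23.2, 23.5 and 22.4 in DMSO to between 8.05 and 13.5 in the 8 inhibitor libraries. Zfp239 fell by 1.16, 1.32, 0.67 and 0.76, and its call was lost in 3 of these fits in BRD4884 (limma adjusted p up to 0.264) and in 1 in BRD6688 (up to 0.0857). Zfp101 fell in Vorinostat (-2.01), CI-994 (-2.27) and BRD4884 (-0.89, lost without library A with limma adjusted p = 0.0787), while BRD6688 gave -0.59 with an adjusted p of 0.0749. The 2 other members among the 8 lowest had no junction reads: Zfp91, an E3 ubiquitin ligase of NF-kappa-B signalling, was at 57.2 RPKM in DMSO and at 20.2, 22.6, 29.6 and 34.7 RPKM in the inhibitors, and Zfp869 at 38.5 RPKM and at 22.6, 16.3, 19.5 and 19.7 RPKM.

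Zfp385a, also known as Hzf, an RNA-binding protein and partner of p53, had the highest median RPKM ratio over the 4 inhibitors. It lies at chr15:103313895-103340093. Its junction levels were 23.7, 20.8 and 18.3 in DMSO, 49.8 and 58.6 in Vorinostat, 61.9 and 65.3 in CI-994, 44.8 and 49.7 in BRD4884, and 59.2 and 62.9 in BRD6688, so every inhibitor library lay above the DMSO libraries. It rose by 1.38, 1.61, 1.18 and 1.55 on the log2 scale (SE 0.12, limma adjusted p from 4.33e-08 to 2.48e-06). Its RPKM went from 7.30 to 13.6, 16.9, 14.9 and 17.8.

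Zfp217 (chr2:170108643-170148103), an oncogene product found with the Lsd1 and CoREST co-repressors, rose next. Its levels were 27.6, 28.6 and 28.5 in DMSO, 67.4 and 86.9 in Vorinostat, 77.3 and 77.1 in CI-994, 45.0 and 48.9 in BRD4884, and 60.7 and 52.1 in BRD6688. The log2 differences were 1.44, 1.45, 0.73 and 0.99 (limma adjusted p from 6.48e-08 to 9.61e-05). No inhibitor library overlapped the DMSO libraries.

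The other 6 of the 8 highest members were less uniform. Zfp346, which binds double-stranded RNA, rose by 0.91, 0.77, 0.37 and 0.47, from between 37.1 and 39.8 in DMSO to between 48.0 and 80.6 in the inhibitors, and its call in BRD4884 was lost without library B (limma adjusted p = 0.0575). Zfp945 rose by 1.43, 1.04, 0.52 and 1.0, and its call in BRD4884 was lost in 4 of the fits that left out a library, with limma adjusted p up to 0.166. Zfp462, a protein that keeps heterochromatin with HP1 and G9a, rose in Vorinostat (0.70) and CI-994 (0.82) but not past the threshold in BRD4884 (-0.28, limma adjusted p = 0.0668) or BRD6688 (0.15, adjusted p = 0.313). Zfp169 had under 1 normalised junction read per 1000000 in each DMSO library, and its rise in Vorinostat (1.12, limma adjusted p = 0.0406) and CI-994 (1.58, adjusted p = 0.00672) was lost in 7 and 1 of the fits that left out a library. Zfp691 was called only in Vorinostat (0.98), where its libraries read 5.24 and 2.34, and without library A the value was 0.40 with a limma adjusted p of 0.293. Zfp467, a factor of fat and bone cell fate, was called only in BRD6688 (0.65), and not without library B (0.45, limma adjusted p = 0.116).

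**Figure D4:**
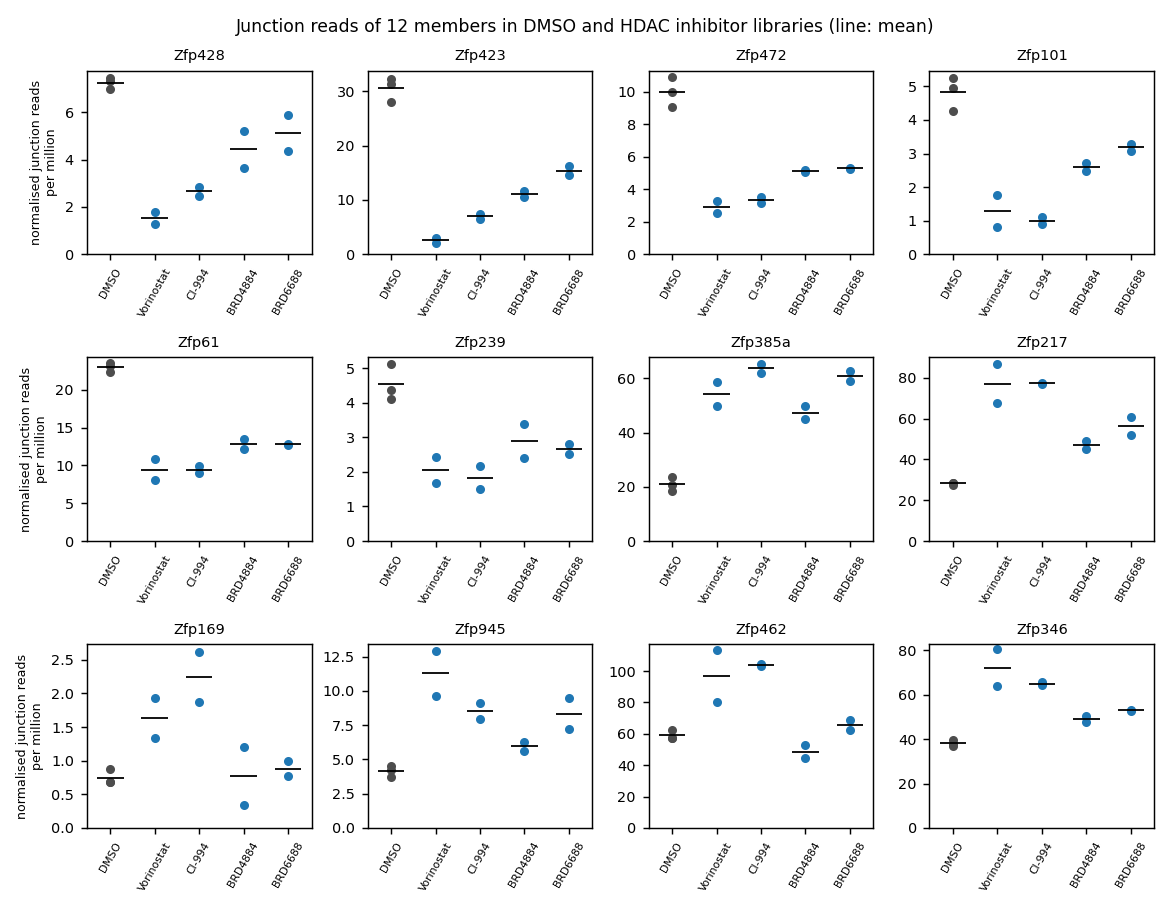
Normalised junction reads per 1000000 (vertical axes, each from 0) of 12 members in the 3 DMSO libraries (grey) and the 2 libraries of each HDAC inhibitor (blue), with lines at the means. Zfp428, Zfp423, Zfp472, Zfp101, Zfp61 and Zfp239 lie below the DMSO libraries and Zfp385a, Zfp217, Zfp945 and Zfp346 above them in all 4 inhibitors, while Zfp169 and Zfp462 overlap DMSO or lie on its other side in BRD4884.

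BRD4884 and BRD6688 were compared in the same fit, a test chosen after seeing the data. Of 156 members, 26 were lower (25.9% of the 7448 genes) and 3 higher (10.7%) in BRD4884 than in BRD6688, with a median log2 difference of -0.19 against -0.11 for the genes. Zfp398 was at a mean level of 8.90 in BRD4884 and 17.8 in BRD6688 (log2 difference -0.99 ± 0.19, limma adjusted p = 0.00588), Zfp652 at 12.3 and 21.5 (-0.81), Zfp609, a partner of the cohesin loader Nipbl, at 43.8 and 76.4 (-0.80), and Zfp148, which binds GC-rich promoters, at 29.1 and 46.9 (-0.69). Zfp386 was higher in BRD4884, at 6.29 against 3.76 (0.74, limma adjusted p = 0.0124). Zfp423 differed too (-0.47, adjusted p = 0.0373), while for Zfp385a (-0.37, 95% interval -0.66 to -0.08, limma adjusted p = 0.0518), Zfp217 (-0.26, interval -0.53 to 0.01) and Zfp428 (-0.21, interval -0.69 to 0.27) the difference missed the threshold. These counts rest on single libraries: 0 members were lower without BRD6688 library A, 11 without its library B, 4 without BRD4884 library A and 7 without its library B, and 49 and 48 without Vorinostat library A or B. The shares of all genes in the fits that left out a library are not given here. Zfp398, Zfp652 and Zfp609 were named after their values were seen.

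Members with known roles moved in different directions. Zfp207 fell in all 4 inhibitors by 0.51, 0.19, 0.47 and 0.33 on the log2 scale of junction reads (limma adjusted p from 4.99e-05 to 0.0391), from levels of 340, 348 and 387 in DMSO. Zfp260 rose in all 4, by 0.51, 0.65, 0.35 and 0.41 (limma adjusted p from 0.000724 to 0.0424). Zfp655 rose in Vorinostat (1.12) and CI-994 (0.59) and fell in BRD4884 (-0.44, limma adjusted p = 0.0295), with -0.12 in BRD6688 (adjusted p = 0.524). Zfp106 rose in CI-994 (0.43) and fell in BRD4884 (-0.26, limma adjusted p = 0.0402). Zfp622, a factor in the maturation of the large ribosomal subunit, rose in Vorinostat (0.27) and fell in CI-994 (-0.34), BRD4884 (-0.56) and BRD6688 (-0.41). Zfp143, which binds promoters and chromatin loop anchors, rose in Vorinostat (0.47, limma adjusted p = 0.000528). Of the 11 fits that left out a library, 8 lost the call of Zfp207 in CI-994, 1, 6 and 4 lost those of Zfp260 in Vorinostat, BRD4884 and BRD6688, 3 lost that of Zfp655 and 9 that of Zfp106 in BRD4884, and 2 and 1 lost those of Zfp622 in Vorinostat and CI-994.

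The imprint and retroelement silencers were also mixed. Zfp445 rose in Vorinostat (0.64, limma adjusted p = 0.00139) and CI-994 (0.42, adjusted p = 0.0203, lost in 4 of the 11 fits), while BRD4884 gave -0.34 (adjusted p = 0.0627) and BRD6688 0.00 (adjusted p = 0.994). Zfp57, its partner in the maintenance of imprints, had no junction reads and was at 6.07 RPKM in DMSO and at 7.03, 7.50, 8.20 and 8.42 RPKM in the 4 inhibitors. Zfp568, which represses the placental promoter of Igf2, fell in Vorinostat (-0.50) and BRD4884 (-0.76, limma adjusted p = 4.55e-05). Zfp809, which silences retroviral DNA, fell in Vorinostat (-0.77) and BRD4884 (-0.60, limma adjusted p = 0.00652). Zfp386 fell in CI-994 (-0.67) and BRD6688 (-0.86), with values of 0.22 in Vorinostat (limma adjusted p = 0.255) and -0.11 in BRD4884 (adjusted p = 0.576).

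Members with a KRAB motif and the others were counted separately. Of 55 tested KRAB members, 18 rose and 13 fell in Vorinostat, against 21 and 34 of the 101 others. Of the 7448 genes, 34.2% rose and 40.4% fell there. In CI-994 the KRAB counts were 12 and 15 against 19 and 35 (33.2% and 42.7% of the genes). In BRD4884 they were 4 and 15 against 4 and 52 (19.2% and 40.6%), and in BRD6688 6 and 12 against 13 and 34 (27.3% and 35.4%). The median centred RPKM ratio was 0.15 in Vorinostat over the 89 KRAB members and 0.01 over the 117 others. It was 0.07 and 0.06 in CI-994, -0.03 and -0.17 in BRD4884, and -0.04 for both in BRD6688. In BTB13120 the order was reversed, with -0.02 for KRAB members and 0.13 for the others, as it was in BTBS00065, with -0.16 and -0.03. In BTBS00065 6 members rose by junction reads (9.28% of the 7448 genes) and 17 fell (14.4%), and 10 of the 17 had a KRAB motif. The difference between the KRAB and other members was not tested, and the others may include KRAB proteins that the strict motif missed.

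**Figure D5:**
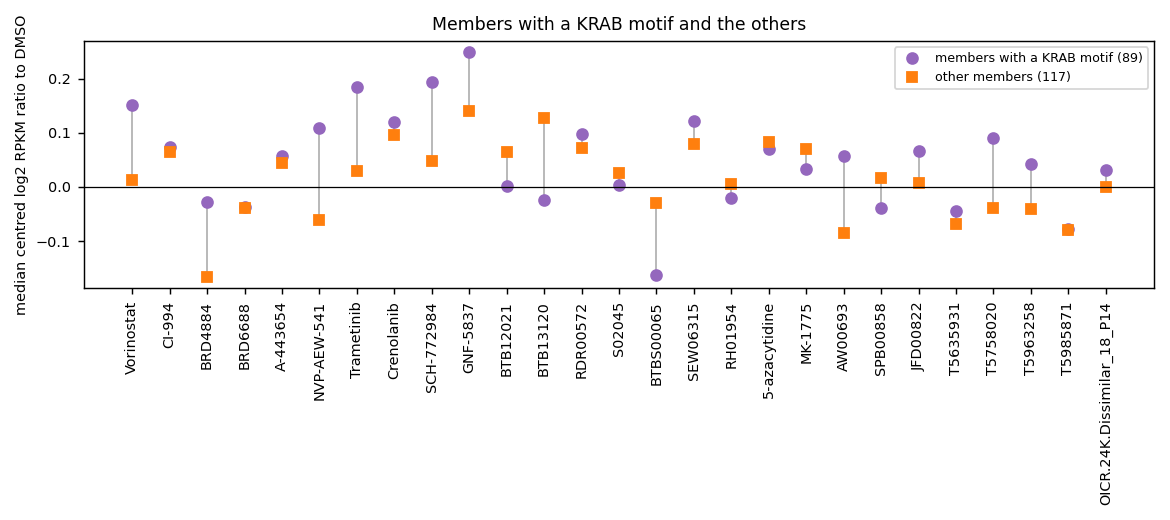
Median centred log2 RPKM ratio to DMSO (vertical axis) of the 89 members with a KRAB motif (purple circles) and the 117 others (orange squares) in 27 compounds, with grey lines joining the pair of medians. The circles lie above the squares in Vorinostat (0.15 against 0.01) and Trametinib (0.18 against 0.03) and below them in BTB13120 (-0.02 against 0.13) and BTBS00065 (-0.16 against -0.03).

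The co-repressors that KRAB proteins work with were counted by junction reads as well. Of 17 tested genes of a 19-gene list, 3 rose and 10 fell in Vorinostat (34.2% and 40.4% of the 7448 genes), 2 and 10 in CI-994 (33.2% and 42.7%), 1 and 13 in BRD4884 (19.2% and 40.6%), and 3 and 8 in BRD6688 (27.3% and 35.4%). Trim28, the scaffold that binds the KRAB domain, was at 413 RPKM in DMSO and fell by 1.51, 1.11, 0.86 and 0.83 on the log2 scale of junction reads (limma adjusted p from 1.17e-10 to 2.35e-07). Hdac1, a deacetylase of the same complexes, rose by 0.66, 0.86, 0.34 and 0.45. Setdb1, the histone methyltransferase recruited by Trim28, fell in junction reads by 0.23, 0.44, 0.62 and 0.22 (limma adjusted p from 5.47e-05 to 0.0474). Its centred RPKM ratios were smaller, at -0.06, -0.15, -0.41 and 0.07. The median centred RPKM ratio of the 19 genes was -0.19, -0.27, -0.26 and 0.06.

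Other zinc finger genes and a list of textbook short-lived mRNAs were set beside the members. The 105 Zfp genes at 1 to 5 RPKM had median centred ratios of 0.53, 0.36, 0.19 and 0.21 in Vorinostat, CI-994, BRD4884 and BRD6688. These were above those of the members, and all 2572 genes at that level had 0.51, 0.63, 0.42 and 0.33. The levels were cut on DMSO RPKM, which also divides each ratio, and the ratios were centred on genes above 5 RPKM. The order of these levels therefore cannot be read as a difference between the genes. Of these 105 genes, 20 lay past 2-fold higher and 3 lower in Vorinostat, against 32.7% and 7.23% of the 2572. Klf and Sp genes above 5 RPKM (11 of 26) had medians of 0.54, 0.83, 0.15 and 0.29, and Zbtb genes (24 of 42) 0.01, 0.12, -0.03 and 0.03. Among 21 short-lived mRNAs above 5 RPKM, immediate-early genes and the like, the medians were 0.45, 0.58, 0.27 and 0.09, and in T5985871 the median was 1.06 with 11 of 21 past 2-fold higher. In the same compound the median of the members was -0.08.

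Among the single-library compounds, 10 of 23 had no member past 2-fold. Their tests rest on 1 library and take the spread of the replicated groups. T5985871 had the most of them, with 6 past 2-fold higher (6.34% of the 9397 genes) and 7 lower (4.45%), or 3 and 17 without centring (3.44% and 8.81%). By junction reads 25 members rose (27.6% of the 7448 genes) and 27 fell (25.7%). Zfp622 went from 19.97 RPKM in DMSO to 62.2 RPKM, the highest member ratio in the data set at 1.85 on the log2 scale, and its junction level was 138 (log2 difference 1.96 ± 0.12, limma adjusted p = 7.95e-08). Zfp523, the mouse counterpart of human ZNF76, went from 7.21 to 1.58 RPKM and fell in junction reads (-1.81, limma adjusted p = 4.23e-06). Zfp428, lowest in the HDAC inhibitors, was here among the highest, at 39.4 RPKM (junction difference 1.85, limma adjusted p = 5.92e-05), and Zfp580 was at 17.1 RPKM against 7.64 in DMSO (1.84, adjusted p = 0.016). The junction reads of Zfp580 came from 1 intron and were few, with levels of 1.49, 0.72 and 0.83 in DMSO and 3.44 in T5985871. Zfp169 went from 13.7 to 3.77 RPKM, but its junction reads gave -0.33 with a limma adjusted p of 0.667. Zfp933, without junction reads, went from 7.63 to 1.99 RPKM.

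AW00693 had 1 member past 2-fold higher (1.52% of the 9397 genes) and 3 lower (2.29%). Zfp622 was again the highest, at 47.8 RPKM (junction difference 1.39, limma adjusted p = 5.84e-06), and Zfp523 the lowest, at 2.47 RPKM (-1.03, adjusted p = 0.000935). Zfp444 was at 6.61 RPKM against 15.8 in DMSO (junction difference -0.64, limma adjusted p = 0.121) and Zfp251 at 5.02 against 10.96 (-0.71, adjusted p = 0.0261).

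In GNF-5837 more members rose than fell by junction reads. In RPKM, 8 lay past 2-fold higher (3.24% of the 9397 genes) and 0 lower (3.03%), or 1 and 3 without centring (1.56% and 5.99%). In junction reads 37 of 156 members rose (18% of the 7448 genes) and 11 fell (25.8%), with a median log2 difference of 0.21 against -0.05 for the genes. Zfp467 went from 6.13 to 17.9 RPKM (junction difference 1.52, limma adjusted p = 0.000239), Zfp945 from 6.68 to 13.8 RPKM (1.22, adjusted p = 0.00134) and Zfp579, without junction reads, from 9.86 to 19.3 RPKM. Zfp423, which fell in all 4 HDAC inhibitors, was at 39.5 RPKM in GNF-5837 against 21.9 in DMSO and rose in junction reads (0.68, limma adjusted p = 0.00845). The lowest were Zfp472 at 4.01 RPKM (junction difference -1.18, limma adjusted p = 0.000368), Zfp420 at 4.23 RPKM and Zfp850 at 5.87 RPKM.

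In MK-1775, 5 members lay past 2-fold higher (1.33% of the 9397 genes) and 0 lower (0.575%). Without centring the counts were 0 and 1, as the 9397 genes shifted by -0.32 on the log2 scale. The 5 were Zfp580 (15.3 RPKM), Zfp354a, a KRAB protein first known from kidney (29.7 RPKM against 15.3 in DMSO), Zfp865 (20.96 against 12.1), Zfp579 (16.7) and Zfp358 (64.8 against 39.9). Of the 3 with junction reads, Zfp580 was called (limma adjusted p = 0.0449) and Zfp354a (0.149) and Zfp358 (0.167) were not. Junction reads of Zfp580 were few, as given above. In BTB13120, 3 members lay past 2-fold higher (2.31%) and 1 lower (2.29%). Zfp462 went there from 31.8 to 77.8 RPKM, with a smaller junction difference of 0.53 (limma adjusted p = 0.0225), and Zfp932 from 34.4 to 15.1 RPKM. By junction reads 22 members rose in BTB13120 (17.5% of the 7448 genes) and 11 fell (19.1%), and in Crenolanib 18 rose (11.5%) and 9 fell (17.5%).

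In 5 compounds limma called no member by junction reads. In RDR00572 3.88% of the 7448 genes were called and 25 members had an unadjusted p under 0.05. The values were 2.35% and 11 in S02045, 1.28% and 14 in JFD00822, 0.0537% and 6 in RH01954, and 0.0134% and 6 in SPB00858. The gene shares are at the adjusted p. The share of all genes at the unadjusted cut is not given here, so these member counts do not set the members against other genes. No other tool was run on the junction reads.

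Splicing of the members was read from percent intron retention and percent spliced in (PSI) per library, with an event called at a limma adjusted p below 0.05 and a difference of at least 10 points. Retention of member introns was low in DMSO but above that of introns at large, with a median of 0.49% over 651 introns of 149 members against 0.13% over all 89024 introns. Of the member introns, 35 were above 10%. Positions are on mm9, the build of the splicing table. Few of them changed under HDAC inhibition. In Vorinostat 1 intron fell (0.00231% of introns), the 93-base intron of Zfp512b at chr2:181324665-181324757, from 69.6%, 74.6% and 72.8% in DMSO to 47.5% and 50.1% (limma adjusted p = 0.0491). In CI-994 1 intron rose (0.107%), in Zfp369, but only 1 of its 2 libraries had a value, at 16.8% against 3.83%, 1.39% and 4.32% in DMSO. By limma no member intron was called in BRD4884 or BRD6688, and none of 458 exons of 128 members in any HDAC inhibitor. At an unadjusted p under 0.05 there were 26 of 645 member introns in BRD4884 and 31 of 641 in BRD6688. Of member exons there were 25 of 435 in Vorinostat, 33 of 446 in CI-994, 16 of 448 in BRD4884 and 19 of 453 in BRD6688. The share of all introns or exons at that cut was not computed. No other tool was run on these events.

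More events were called in single-library compounds. In T5985871 6 of 591 member introns rose (0.543% of introns), led by a 1186-base intron of Zfp655 at chr5:145996733-145997918, with 2.47%, 3.70% and 7.25% in DMSO and 40.9% in T5985871 (limma adjusted p = 0.00333). The 6 include 1 intron of Zfp280d whose replicated groups had no spread, so its test carries no meaning. In RDR00572 5 of 607 rose (0.475%), in S02045 3 of 619 (0.150%) and in MK-1775 2 of 628 (0.105%). Among exons, 11 of 454 fell in MK-1775 (1.20% of exons), in Zfp692, Zfp266, Zfp740, Zfp609, Zfp317, Zfp26 and Zfp512b, in Zfp523 at 2 exons, in Zfp318 and in Zfp326, a factor that couples elongation by RNA polymerase II to splicing. In T5985871 3 of 425 rose (0.249%) and 7 fell (1.42%), of which 1, in Zfp408, had no spread in the replicated groups. In A-443654 5 of 447 fell (0.5%), of which 1, in Zfp687, had none either. In RDR00572 5 of 441 fell (0.678%), in S02045 1 rose (0.117%) and 3 of 445 fell (0.504%), in BTB12021 2 of 446 fell (0.6%) and in RH01954 2 of 441 fell (0.170%).

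The same 2 exons were called in BTB12021, RDR00572, S02045 and RH01954. The 48-base exon of Zfp207 at chr11:80203276-80203323 had a PSI of 88.4%, 88.7% and 89.7% in DMSO and of 51.4%, 58.1%, 58.4% and 75.2% in these 4 compounds (limma adjusted p from 2e-06 to 0.000904). The 124-base exon of Zfp740 at chr15:102039184-102039307 had 66.5%, 54.8% and 56.8% in DMSO and 12.4%, 10.1%, 14.4% and 21.9% in them (limma adjusted p from 0.00542 to 0.0273). The 278-base intron that follows it, chr15:102039308-102039585, was retained at 9.40%, 13% and 9.68% in DMSO and at 44.3% in BTB12021, 45.0% in RDR00572 and 38.5% in S02045 (limma adjusted p from 0.00827 to 0.0351). All 4 compounds are compared with the same DMSO libraries. In RDR00572, S02045 and RH01954 no member was called by junction reads, as given above.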

How the data were processed

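PolyA RNA of N2A cells was sequenced in 34 libraries (TruSeq RNA v2, unstranded). To obtain the deposited RPKM, the authors summed Salmon estimates over GENCODE vM21 transcripts to genes (the submitters' processing notes give version 0.10.2), with replicates merged into 1 value per condition. The authors' log2 fold changes, p-values and FDR from edgeR in that table were not used, nor was their table of merged splicing calls. The deposited percent values per library (PSI and intron retention) and their quality strings of reads were made by the authors with vast-tools on mm9. Exons needed a coverage score of at least LOW, introns 15 or more reads with a balance p over 0.05, and an event needed values in 2 DMSO libraries and 20 libraries. Junction reads were summed over the introns of a gene, and log2 values per 1000000 junction reads (prior 0.5) were centred on each library's median and fitted with limma 3.58.1 in R 4.3.3 (trend). The splicing fits used limma on percentages. On simulated reads with 200 genes changed 2-fold in the CI-994 layout, 97% were recovered among 10679 genes, with 9 false calls. The simulation gave all genes 1 fixed dispersion and changed no other gene. In the data 41.4% of the tested genes rose and 35.1% fell in CI-994, so the simulation does not measure the error rate of the reported calls. Members and gene lists were chosen with earlier results of these data known. The named genes are those at the extremes of the DMSO level, of the HDAC inhibitor median, of the range and of 5 single-library compounds (2 tied in last place), those with known roles, and those with a called event. Others named in the splicing results were chosen after their values were seen. KRAB and C2H2 motifs were counted in translated GENCODE coding sequences, an analysis added after seeing the data. Of the list of neuroblastoma markers, 1 gene is not reported here.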

Additional observations from a re-analysis of the deposited data

How the results depend on the processing

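Counts from merged RPKM have no error and the single-library tests assume the spread of the replicated groups, so small effects there are limited by depth and replication. For the RPKM counts without centring, the shares of all genes are given above. The other counts and percents in this section stand without the share of all genes in the same setting, so they do not set the members against other genes. Without centring, the percent of members past 2-fold higher and lower was 0.485 and 12.6 in Vorinostat, 0.971 and 16.02 in CI-994, 0 and 2.91 in BRD4884, and 0.971 and 1.94 in BRD6688. With all Zfp genes above 1 RPKM it was 9.32 higher in Vorinostat, 8.04 higher in CI-994, 1.93 higher and 0.322 lower in BRD4884, and 0.965 lower in BRD6688. With members above 10 RPKM it was 0 higher and 0.794 lower in BRD4884 and 0.794 lower in BRD6688, and with a pseudocount of 1 it was 0 lower in BRD4884. Scaled to total junction reads only, 13 members rose and 39 fell in BRD4884, and 6 were higher and 15 lower in BRD4884 than in BRD6688. The cause was not tested.

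The library letters did not pair the samples (same-letter correlations of deviations from -0.16 to 0.033). With the replicate block, 32 members rose and 46 fell in Vorinostat, 28 and 42 in CI-994, 6 and 52 in BRD4884, and 15 and 36 in BRD6688, and 1 was higher and 22 lower in BRD4884 than in BRD6688. Leaving out 1 library at a time, between 29 and 41 rose and 44 and 57 fell in Vorinostat, 25 and 38 rose and 40 and 58 fell in CI-994, 4 and 8 rose and 46 and 80 fell in BRD4884, and 9 and 24 rose and 33 and 52 fell in BRD6688, and between 0 and 5 were higher and 0 and 49 lower in BRD4884 than in BRD6688. Fewer rose in BRD4884 without DMSO library A (5), BRD4884 library A (5) or B (4), and in BRD6688 without its library A (9). Of the calls, 58 of 86 in Vorinostat, 54 of 81 in CI-994, 40 of 75 in BRD4884 and 32 of 65 in BRD6688 were made in every such fit. Among 46 named genes, 3106 of 3312 alternative values stayed on their side of the threshold, 142 lost it, 64 passed it and 0 turned sign after being called.

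The event counts that follow have no share of all introns or exons beside them, so they do not set the members against other genes. With no minimum difference, the member introns called were 3 of 625 in Vorinostat, 4 of 628 in CI-994, 3 of 645 in BRD4884 and 2 of 641 in BRD6688. Leaving out 1 library, they ranged from 0 to 1 in Vorinostat, 0 to 11 in CI-994 (0 without its library A and 11 without B), and 0 to 1 in BRD4884 and BRD6688. The member exons called ranged from 0 to 2 in Vorinostat and CI-994, 0 to 1 in BRD4884 and 0 to 3 in BRD6688.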
